A study of Mus musculus with 6 samples.

Results

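Hnf4a, Apob and 7 further genes of lipoprotein assembly, lipid uptake and sterol export were followed in bone marrow LSK cells of Etv6 mutant and wild-type mice. The 9 genes were taken by symbol from the 55573 genes of the count table, and all 9 were found and passed the filter on low counts. Hnf4a, Apob and Slc27a2 were selected on their measured genotype difference in these same libraries, and Mttp, Apoe, Lpl, Cd36, Abca1 and Abcg1 because their products act in the same pathways. The genotype difference of the first 3 is therefore a description of how they were chosen, with no test attached, and none of the 9 differences is used here as support. LSK cells lack lineage markers and carry Sca-1 and c-Kit, the marrow fraction that holds blood stem cells and multipotent progenitors. The 6 libraries came from C57BL/6J mice aged 3 months, 3 of them Etv6+/+ and 3 carrying the R355X allele of Etv6 on a single chromosome. The labels write the mutant genotype as Etv6+/-, while the design text names the allele R355X, which puts a stop codon into the ETS-family repressor ETV6. All 6 samples were enriched for c-Kit and then sorted, and no transgene or Cre is named in the labels.

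In liver and gut, apolipoprotein B is the scaffold on which triglyceride-rich particles are built. Microsomal triglyceride transfer protein, the product of Mttp, loads it with lipid, and the nuclear receptor HNF4A is a known activator of both genes in hepatocytes. In other tissues lipoprotein lipase (Lpl) frees fatty acids from the particles, CD36 and the SLC27 proteins carry them into cells or activate them, and APOE, ABCA1 and ABCG1 serve the return of cholesterol, largely in macrophages. HNF4A is best known from liver, kidney and gut and not from blood progenitors.

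The promoter sequences of the 2 genes that were lower in the mutant are shown because Apob is a textbook HNF4A target. RefSeq windows around the annotated starts (build GRCm38.p6, the assembly also called mm10) were matched for 7 of the 9 genes, 10 windows in all, each with 250 bases before and 50 after a start. Hnf4a has 2 windows, whose starts lie 40298 bases apart. In mammals the upstream start is used mainly in pancreas and gut and the downstream start mainly in adult liver, and counts per gene do not separate them. The stretches below are on the plus strand, end before the first annotated exon or start, and carry capitals where the searched letters CAAAGGTC, a stretch of the direct repeat that HNF4A binds, were found on either strand.
Hnf4a upstream start, chr2:163506607-163506807: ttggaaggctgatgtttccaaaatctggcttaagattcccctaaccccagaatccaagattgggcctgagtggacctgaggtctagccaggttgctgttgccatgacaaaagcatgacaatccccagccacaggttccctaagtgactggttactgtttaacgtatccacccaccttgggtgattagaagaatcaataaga
Hnf4a downstream start, chr2:163546905-163547154: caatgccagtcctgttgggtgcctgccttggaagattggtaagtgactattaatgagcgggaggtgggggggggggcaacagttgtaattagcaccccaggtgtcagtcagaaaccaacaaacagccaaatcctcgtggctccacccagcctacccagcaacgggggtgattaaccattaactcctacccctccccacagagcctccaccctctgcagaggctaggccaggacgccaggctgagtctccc
Apob, chr12:7977427-7977647: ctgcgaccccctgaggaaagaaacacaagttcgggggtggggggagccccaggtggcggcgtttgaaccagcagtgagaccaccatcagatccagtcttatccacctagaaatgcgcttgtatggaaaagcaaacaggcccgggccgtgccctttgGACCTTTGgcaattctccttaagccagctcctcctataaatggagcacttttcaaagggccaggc
The Apob window held the reverse complement of CAAAGGTC 94 bases before its start, at chr12:7977583-7977590, and 1.17% of 32851 windows of all genes held these letters. They were also found in 1 of the 3 Apoe windows and in neither Hnf4a window. The letters CAAAGTCCA, another HNF4A core, were in none of the 10 windows and in 0.475% of all windows. The ETS motif CCGGAAGT was likewise in none of the 10 and in 3.89% of all. The whole direct repeat, AGGTCA written again after 1 base of any kind, was in none of the 10 and in 0.0396% of all. Both strands were searched, the letters were chosen with the windows in view, no other searched motif overlaps the Apob position, and a match is only a match of letters.

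The libraries held 45.2 to 92.2 M expected counts, mutant replicate 1 being the deepest. Etv6 measured 454, 419 and 400 CPM (counts scaled to the TMM library size) in the wild type and 305, 341 and 386 in the mutant, an exact two-sided permutation p of 0.1, which is the smallest that 3 against 3 allows. Counts per gene cannot tell the R355X transcript from the normal one, so this level does not test the labels. All 10 LSK markers listed were present, 9 of them below 0 in log2 fold change, with summed levels of 1550 to 1980 CPM in wild type against 1560 to 1740 CPM in mutant libraries. B cell markers were above 0 in 8 of 8, and edgeR's quasi-likelihood test called 0 of them. In that test 7 had an unadjusted p under 0.05 (87.5%, against 10.6% of all genes tested). Their sums were 1410 to 2230 and 2290 to 2680 CPM. Of these sums, Ighm alone gave 1620, 2140 and 1300 CPM in wild-type libraries and 2160, 2510 and 2170 CPM in the mutant. Neutrophil markers were below 0 in 6 of 8, with sums of 5440 to 8110 and 4200 to 5900 CPM. The part of these cell types in the values of the 9 genes was not tested. On the neutrophil list, Mpo measured 2510, 2620 and 4690 CPM in wild-type replicates 1, 2 and 3, and Elane 277, 282 and 535. Camp was also highest of the wild type in replicate 3 (295 CPM), while Ltf, Ngp and Ly6g were highest in replicate 1. Wild-type replicate 3 had the highest neutrophil sum, largely through Mpo, and mutant replicate 1 the greatest depth and macrophage sum. With both left out, the log2 fold changes were -1.45 for Hnf4a, -2.01 for Apob, 1.64 for Slc27a2, 0.50 for Apoe, 0.40 for Lpl (0.62 with all libraries), 0.76 for Cd36, 0.17 for Mttp, 0.18 for Abca1 and 0.093 for Abcg1. Of 20646 genes tested with edgeR's quasi-likelihood test, 55 passed a Benjamini-Hochberg adjusted p of 0.05, which is 0.266%, 39 higher in the mutant (0.189%) and 16 lower (0.0775%). Among the 9 genes 3 passed, namely Hnf4a, Apob and Slc27a2, the 3 that were chosen for it. Of these 3, Hnf4a lay nearest to the threshold. Of the 6 chosen by function, the nearest was Apoe, well outside it, at an edgeR adjusted p of 0.174. The labels do not say that replicates are separate animals, so SDs and intervals describe these libraries and may be technical. In bulk RNA, fewer cells of a type and less RNA per cell cannot be told apart.

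**Figure D1:**
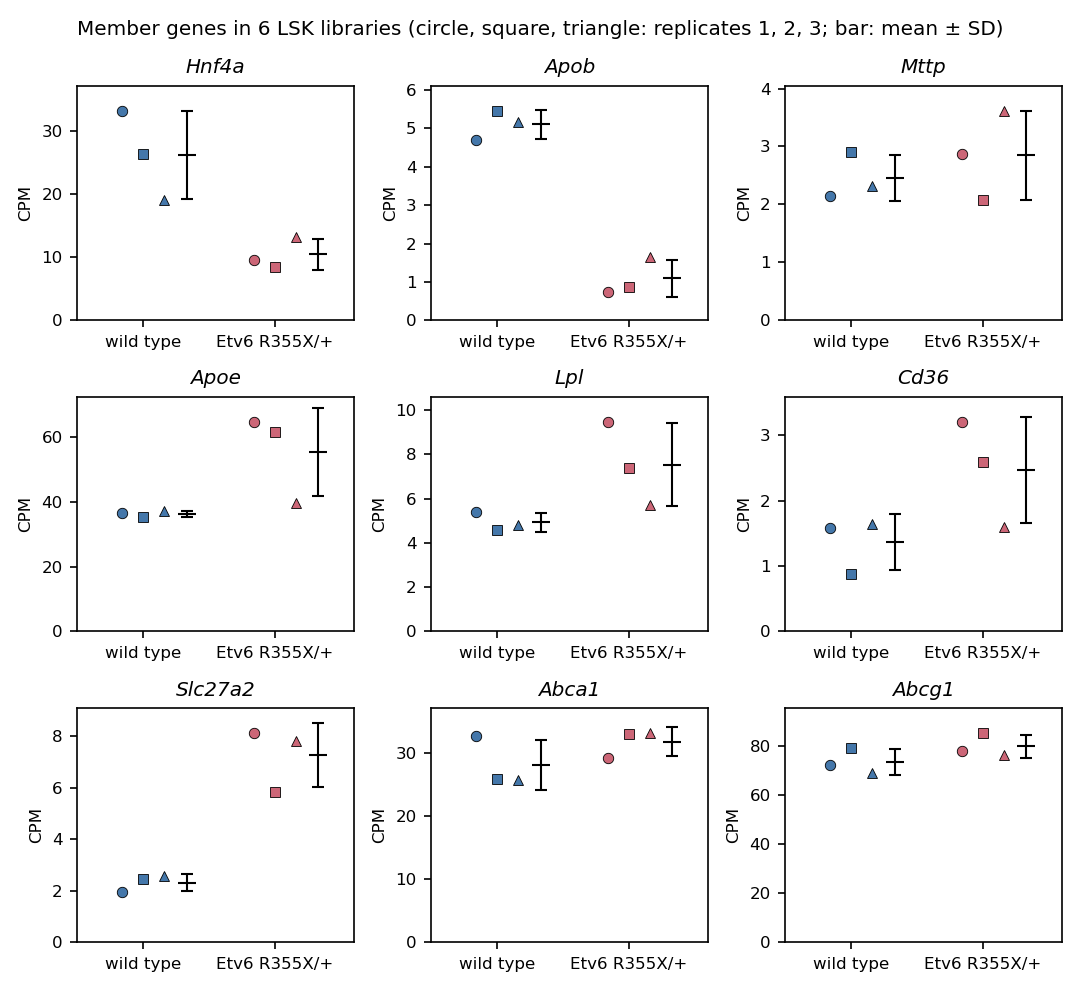
CPM of each gene (y axis, linear from 0) in the 3 wild-type (blue) and 3 Etv6 R355X/+ (red) libraries, with mean and SD as black bars. The genotypes do not overlap for Hnf4a, Apob, Apoe, Lpl and Slc27a2, and overlap for Mttp, Cd36, Abca1 and Abcg1.

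Hnf4a (ENSMUSG00000017950.16, chromosome 2 from 163506808 to 163572910) encodes the nuclear receptor. It measured 33.2, 26.4 and 19.1 CPM in wild-type replicates 1, 2 and 3 and 9.63, 8.54 and 13.3 CPM in the mutant replicates, from 445 to 2035 expected counts per library. The genotypes did not overlap, the wild-type libraries were spread widely, and mutant replicate 3 stood above the other mutant libraries. The mutant level was 39.9% of wild type, a log2 fold change of -1.32 (SE 0.208, 95% interval -1.78 to -0.87). The antisense gene Hnf4aos, which lies within the Hnf4a locus, was listed at 0 in all 6 libraries. A count of 0 allows up to 0.0343 to 0.0668 CPM, or 3 counts in a library. The call of Hnf4a ended without wild-type replicate 1 or 2, without mutant replicate 1 or 2 and with robust estimation (0.392% of genes called), while the log2 fold change stayed between -1.53 and -1.12 with any single library left out.

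Apob (ENSMUSG00000020609.14, chromosome 12 from 7977648 to 8016835) measured 4.70, 5.45 and 5.17 CPM in wild-type libraries against 0.743, 0.882 and 1.65 CPM in mutant libraries. The wild-type libraries were close together and each mutant library was below all of them, mutant replicate 3 again being the highest of its genotype. The mutant level was 21% of wild type (log2 fold change -2.25, SE 0.283, 95% interval -2.88 to -1.62), and it rests on 46 to 74 expected counts per mutant library against 252 to 288 in wild type. The call ended without wild-type replicate 2 and without mutant replicate 2, at log2 fold changes of -2.20 and -2.13.

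Mttp (ENSMUSG00000028158.14, chromosome 3 from 138089854 to 138144968), whose product loads lipid onto apolipoprotein B, overlapped between the genotypes. It measured 2.15, 2.91 and 2.32 CPM in wild-type libraries against 2.87, 2.07 and 3.61 CPM in mutant libraries. The lowest and the highest library were both mutant, and the log2 fold change was 0.21 (SE 0.240, 95% interval -0.32 to 0.74). Mttp shares 457 exon bases with Trmt10a on the opposite strand, which had 689.43 to 1338 expected counts per library against 107.75 to 251 for Mttp. Reads of the shared stretch cannot be assigned without strand information.

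Per kilobase of exon, Hnf4a stood well above Apob in these cells. In wild type, levels in CPM per kilobase were 17.0 ± 0.451 for Apoe (SD, n = 3), 10.1 ± 0.711 for Abcg1, 5.43 ± 1.46 for Hnf4a and 2.71 ± 0.385 for Abca1. The other 5 genes were lower, Slc27a2 at 0.618 ± 0.0889, Lpl at 0.470 ± 0.0393, Mttp at 0.396 ± 0.0639, Cd36 at 0.381 ± 0.118 and Apob at 0.366 ± 0.0272. The first 5 did not overlap with their neighbours in this order, and among the last 4 each overlapped the next. Averaged over the 6 libraries, Hnf4a lay at the 56.9th percentile of the tested genes per kilobase and Apob at the 9.41st, with Apoe at the 91.6th. In the mutant, Hnf4a (2.17 ± 0.520) came below Abca1 (3.06 ± 0.215) and overlapped Slc27a2 (1.93 ± 0.331), and Apob was the lowest at 0.0783 ± 0.0350. With the longest annotated transcript in place of the union of exons, the wild-type level of Lpl became 1.20, above Slc27a2 at 0.795.

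Most other genes of the hepatocyte programme were at 0 or too low to test. Of 24 hepatocyte targets of HNF4A, 8 were at 0 in every library, among them Apoc3, Cyp7a1, the bile acid enzyme, and Pck1 and G6pc of gluconeogenesis, and 8 passed the count filter. Of those 8, edgeR's quasi-likelihood test called 0 (DESeq2 0, limma-voom 0, which called 0.199% of all genes) and 1 had an unadjusted p under 0.05 (12.5%, against 10.6% of all genes tested). That gene was F10, coagulation factor X, at 4.81 ± 1.70 CPM in wild-type libraries against 3.01 ± 0.464 CPM in mutant libraries. Trf, which encodes transferrin, measured 38.8 ± 2.31 and 41.2 ± 5.17 CPM, and Cyp27a1, a sterol hydroxylase, 2.60 ± 0.505 and 3.37 ± 1.08 CPM. The median log2 fold change of the 8 was -0.17, against 0.0019 over all genes tested, and 4 lay on either side of 0. The sign of that median turned without mutant replicate 2 (0.045), without wild-type replicate 3 (0.0079) and with a filter of at least 1 CPM in 3 libraries (0.0076). It was -0.38 without wild-type replicate 2, -0.27 without mutant replicate 3, -0.060 without wild-type replicate 1 and -0.059 in limma-voom. Of 12 hepatocyte markers, 7 were at 0 throughout, Alb among them, and the summed level of all 12 was 0.277 to 0.573 CPM in wild-type libraries against 0.249 to 0.356 CPM in the mutant. For gut and kidney epithelium, 4 of 10 markers were at 0, including Cdx2 and Pdx1, and the summed level was 1.43 to 3.34 and 2.44 to 2.97 CPM.

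Few HNF4A relatives and hepatic transcription factors were expressed. The closest paralog Hnf4g was at 0 in all 6 libraries, as was Foxa1, and 7 of 20 listed genes passed the filter. edgeR's quasi-likelihood test called 0 of these 7 (DESeq2 0, limma-voom 0), 1 had an unadjusted p under 0.05, and their median log2 fold change was -0.30. The median was -0.052 without mutant replicate 3, -0.12 and -0.19 without mutant replicates 2 and 1, -0.13 with a filter of at least 1 CPM in 3 libraries, and turned to 0.082 without wild-type replicate 1. The corepressor receptor gene Nr0b2, known in liver as a partner that restrains HNF4A, measured 2.36 ± 0.865 CPM in wild-type libraries against 1.6 ± 0.0839 CPM in mutant libraries. Cebpa, a myeloid and hepatic factor, measured 17.7 ± 3.06 and 13.4 ± 2.96 CPM, and the common receptor partner Rxra 10.2 ± 1.94 and 11.7 ± 0.219 CPM. Among the other genes of lipoprotein assembly, Apoa4, Apoa5, Apoc3, Apoc4, Apoh and Apol6 were at 0. Of the 22 listed 10 were tested, and edgeR called 0 (DESeq2 0, limma-voom 0), with 0 at an unadjusted p under 0.05 and a median log2 fold change of -0.018. The apolipoprotein B editing enzyme gene Apobec1 measured 30.7 ± 3.91 and 27.8 ± 0.818 CPM, P4hb, which encodes the partner subunit of the triglyceride transfer protein, 267 ± 35.8 and 249 ± 19.6 CPM, and the chaperone apolipoprotein gene Clu 1.78 ± 0.403 and 1.28 ± 0.550 CPM.

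The genes whose profile over the 6 libraries lay nearest to that of Hnf4a were not lipid genes. Likeness was the root mean square difference of log2 CPM after centring each gene on its own mean, over 11938 genes other than the 9. By construction, a profile near Hnf4a has a genotype difference of like size and a like order of libraries within a genotype. Plxdc2, a transmembrane protein gene, was nearest at 0.116, with 25.1, 20.4 and 15.6 CPM in wild-type libraries against 8.41, 7.83 and 9.65 CPM in mutant libraries. Lypd6b followed at 0.175, the coreceptor gene Cd4 at 0.205, the IgA constant region Igha at 0.234 and Rgs7bp at 0.281. In Plxdc2, Lypd6b, Cd4, Igha and Rgs7bp, wild-type replicate 1 was the highest library and wild-type replicate 3 the lowest of its genotype, the order that Hnf4a shows. Apob was the nearest of the other 8 genes to Hnf4a, at 0.410, and Hnf4a the nearest of them to Apob. They are the only 2 of the 9 that were lower in the mutant, and were chosen for it. Their nearness therefore follows from the choice. Outside the 9, Apob lay nearest to the kappa segment Igkv4-72 (0.424), then Plxdc2 (0.450), Lypd6b (0.461), the kinase gene Nrk (0.464) and the myosin gene Myo6 (0.474).

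Since Igha is expressed by plasma cells and Cd4 also by plasmacytoid dendritic cells, markers of both were read, chosen after these values were seen and not tested. Of 8 plasma cell genes 6 were above 0 and 2 below in log2 fold change, with summed levels of 320 to 397 CPM in wild-type libraries against 319 to 511 CPM in the mutant. The joining chain gene Jchain measured 258, 246 and 187 CPM in wild-type libraries against 370, 251 and 197 in the mutant. The 2 below 0 were Xbp1, at 95.5 ± 8.81 and 81.7 ± 3.02 CPM without overlap, and Prdm1, at 8.54 ± 1.93 and 6.44 ± 1.06 CPM. Of 10 plasmacytoid dendritic cell genes 5 were above 0 and 5 below, with summed levels of 530 to 651 and 540 to 572 CPM. Siglech, a surface lectin gene of these cells, measured 9.18, 5.04 and 7.51 CPM in wild-type libraries against 3.12, 3.24 and 5.30 in the mutant, and the chemokine receptor gene Ccr9 29.9, 22 and 18.8 against 9.98, 15.2 and 17.0. Both gave lower mutant means, and Ccr9 did not overlap between genotypes. Klk1 was lower as well, at 1.20 ± 0.614 and 0.439 ± 0.391 CPM with overlap, a log2 fold change of -1.52. Runx2 had a log2 fold change of -0.19. The remaining genes of the list went the opposite way or hardly differed. Ly6d had means of 5.09 ± 0.421 and 7.68 ± 2.12 CPM and Bst2 of 23.1 ± 1.93 and 25.9 ± 1.13 CPM, both higher in the mutant without overlap. The transcription factor genes Tcf4, Irf8 and Spib had log2 fold changes of 0.0024, 0.021 and -0.0067. The part of either cell type in the Hnf4a and Apob values was not tested.

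Slc27a2 (ENSMUSG00000027359.16, chromosome 2 from 126552407 to 126588243), which encodes a fatty acid transporter and very long-chain acyl-CoA synthetase, was higher in the mutant. It measured 1.94, 2.46 and 2.57 CPM in wild-type libraries against 8.12, 5.83 and 7.82 CPM in mutant libraries, from 118.51 to 125 expected counts per wild-type library and 303.55 to 710.45 per mutant library. Every mutant library was above any wild-type library, and mutant replicate 2 was the lowest of its genotype. The difference was 3.13-fold (log2 fold change 1.65, SE 0.195, 95% interval 1.22 to 2.08), and the call held with each library left out in turn (1.53 to 1.78). Slc27a2 shares 419 exon bases with the noncoding gene Gm26697 on the opposite strand, which had at most 3.55 expected counts in any library.

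Among the 6 fatty acid transport protein genes, Slc27a2 took another rank in the mutant than in wild type. Since it was chosen for its rise in these libraries, the move up in rank is no separate result. In wild type, Slc27a1 had 3.14 ± 0.494 CPM per kilobase, Slc27a6 1.75 ± 0.484, Slc27a4 1.54 ± 0.162, Slc27a2 0.618 ± 0.0889, Slc27a3 0.188 ± 0.0295 and Slc27a5 0.0681 ± 0.0743. Slc27a6 and Slc27a4 overlapped, and Slc27a2 was below both. In the mutant Slc27a2, at 1.93 ± 0.331, came after Slc27a1 (2.68 ± 0.599) and overlapped Slc27a4 (1.57 ± 0.348), while Slc27a6 was at 1.27 ± 0.0994. On the CPM scale Slc27a6 had a log2 fold change of -0.47 (SE 0.221, adjusted p = 0.498 in edgeR's quasi-likelihood test), Slc27a1 -0.24 (SE 0.165, adjusted p = 0.662) and Slc27a4 0.035 (SE 0.179, adjusted p = 0.969).

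**Figure D2:**
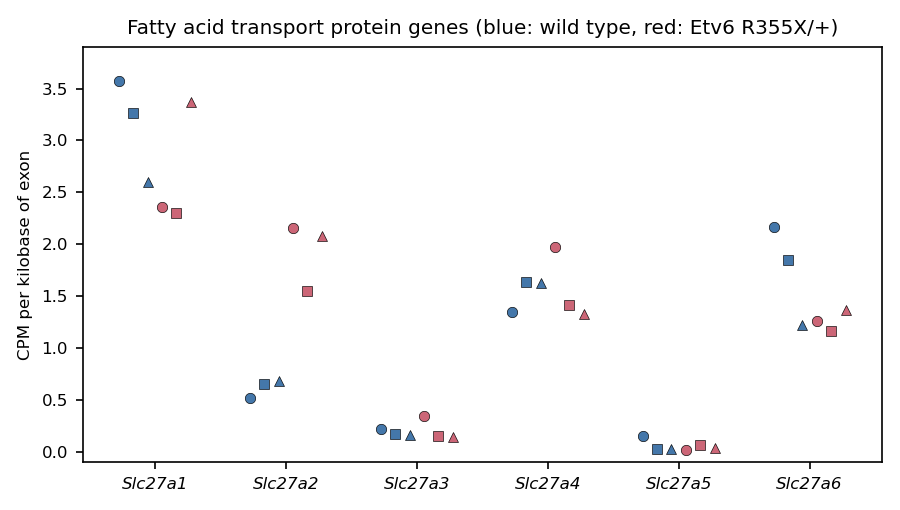
Level of the 6 Slc27a genes in CPM per kilobase of exon (y axis, linear) in each wild-type (blue) and Etv6 R355X/+ (red) library, with circle, square and triangle for replicates 1, 2 and 3. Slc27a2 lies at 0.517 to 0.683 in wild type and at 1.55 to 2.16 in the mutant, where it overlaps Slc27a4 at 1.33 to 1.97.

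The profiles nearest to Slc27a2 came from genes of other functions. As for Hnf4a, such genes have a like genotype difference by construction, and the other 8 genes were not among the candidates. Edaradd, an adaptor of a TNF receptor family member, was nearest at a root mean square difference of 0.197, with 3.76 ± 0.676 CPM in wild-type libraries against 9.20 ± 0.440 CPM in mutant libraries. Fgd5, a guanine nucleotide exchange factor gene that marks stem cells and endothelium, followed at 0.219, then Fcer1a, the IgE receptor alpha chain of mast cells and basophils (0.225), Pik3r6 (0.237) and Ccm2l (0.245). Of the other 8 genes Lpl was the closest, at 0.535. Mast cell and basophil markers were above 0 in 7 of 7 tested of 8 listed, edgeR called 1 of them, Fcer1a, and summed levels were 48.8 to 66.0 CPM in wild-type libraries against 65.2 to 82.4 CPM in the mutant. Endothelial markers were above 0 in 5 of 9, at 100.0 to 116 and 106 to 117 CPM. Their part in the Slc27a2 values was not tested.

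Apoe, Lpl and Cd36 had higher means in the mutant, did not pass the test, and ranked the mutant libraries alike. Apoe, the remnant-clearing apolipoprotein (ENSMUSG00000002985.16, chromosome 7 from 19696109 to 19699188), measured 36.4, 35.2 and 37.1 CPM in wild-type libraries against 64.6, 61.7 and 39.7 CPM in mutant libraries. The wild-type libraries lay close together, and mutant replicate 3 lies just above them. The log2 fold change was 0.61 (SE 0.148, 95% interval 0.28 to 0.94). Lpl (ENSMUSG00000015568.16, chromosome 8 from 68880491 to 68907448) measured 5.38, 4.59 and 4.80 CPM in wild-type libraries against 9.46, 7.40 and 5.73 CPM in mutant libraries, a log2 fold change of 0.62 (SE 0.192, 95% interval 0.19 to 1.04). Its genotypes did not overlap, mutant replicate 3 again being the nearest to wild type. Cd36, the fatty acid and oxidized lipoprotein receptor (ENSMUSG00000002944.15, chromosome 5 from 17781690 to 17888801), measured 1.58, 0.880 and 1.64 CPM in wild-type libraries against 3.20, 2.59 and 1.6 CPM in mutant libraries. Its genotypes overlapped, and the log2 fold change of 0.85 (SE 0.316, 95% interval 0.16 to 1.55) rests on 43 to 280 expected counts per library. Of the 6 genes chosen by function, 2 did not overlap between genotypes, Apoe and Lpl, both higher in the mutant. Over all genes tested the share was 16.3% (8.45% of all genes tested higher and 7.84% lower), and 6 genes are too few to compare with it. Hnf4a, Apob and Slc27a2 did not overlap either, but were chosen for their difference.

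Apoe was called by DESeq2, where 1.89% of the genes given an adjusted p were called. It was also called by edgeR without a count filter (1.58%) and by edgeR without mutant replicate 3, where the log2 fold change was 0.80. Without mutant replicate 1 the values fell to 0.48 for Apoe, 0.42 for Lpl and 0.62 for Cd36.

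The summed macrophage markers ordered the mutant libraries as these 3 genes did. Of 14 markers 13 were tested and 12 of these were above 0, with a median log2 fold change of 0.53. edgeR called 0 of them, 10 had an unadjusted p under 0.05 (76.9%, against 10.6% of all genes), DESeq2 called 4 and limma-voom 0. The summed level was 104, 96.6 and 93.0 CPM in wild-type libraries against 164, 119 and 104 CPM in mutant replicates 1, 2 and 3, and no marker was at 0 in all libraries. The spread between markers was wide. Timd4, a receptor of resident macrophages, was the steepest of those tested and stood at 438%, 328% and 157% of its wild-type mean in mutant replicates 1, 2 and 3, and Cd5l, a secreted macrophage protein gene, at 259%, 225% and 126%. On the same scale Apoe stood at 178%, 170% and 109%, Lpl at 192%, 150% and 116%, and Cd36 at 234%, 189% and 117%. Csf1r, the receptor that macrophages depend on, stood lower, at 121%, 77.1% and 72.9%, and so did the scavenger receptor gene Cd163, at 129%, 94.0% and 86.0%. Cd68 (159%, 127% and 140%) and Adgre1 (176%, 123% and 127%) were higher in mutant replicate 3 than in replicate 2, which Apoe, Lpl and Cd36 were not. Adipocyte markers, which could also carry Lpl and Cd36, summed to 0.430 to 1.26 CPM in wild-type libraries against 0.490 to 2.16 CPM in the mutant, with Lep at 0 throughout. The part of macrophages in the Apoe, Lpl and Cd36 values was not tested.

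**Figure D3:**
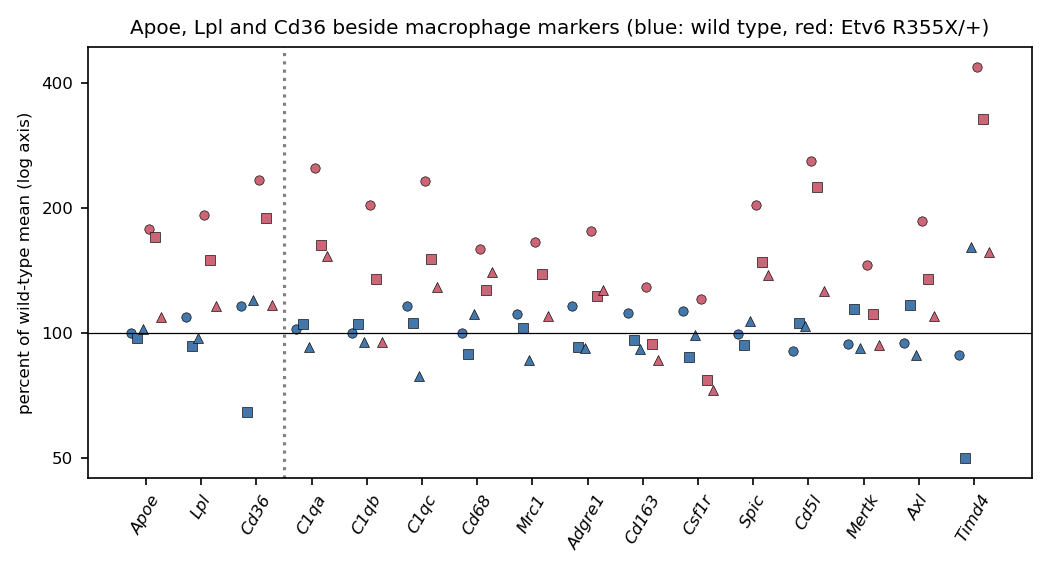
Level in each library as a percent of the wild-type mean (log y axis) for Apoe, Lpl and Cd36 and, right of the dotted line, the 13 tested macrophage markers, with wild type in blue, Etv6 R355X/+ in red, and circle, square and triangle for replicates 1, 2 and 3. Mutant replicate 1 is the highest library for all 3 lipid genes (178%, 192% and 234%) and mutant replicate 3 the lowest of the mutant libraries.

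The cholesterol exporter genes differed least. Abca1 (ENSMUSG00000015243.4, chromosome 4 from 53030787 to 53159895), which loads cholesterol onto lipid-poor apolipoproteins, measured 32.7, 25.8 and 25.7 CPM in wild-type libraries against 29.2, 33.0 and 33.1 CPM in mutant libraries. Abcg1 (ENSMUSG00000024030.7, chromosome 17 from 31057675 to 31117988), which exports cholesterol to high-density particles, measured 72.5, 79.1 and 68.9 CPM in wild-type libraries against 78.2, 85.3 and 76.3 CPM in mutant libraries. The genotypes overlapped for both, and the 95% intervals of the log2 fold change, -0.061 to 0.42 and -0.039 to 0.28, leave out 1, the value of a 2-fold rise. Both are targets of the sterol receptors LXR. Among 23 listed genes of LXR signalling and sterol efflux 19 were tested, and edgeR's quasi-likelihood test called 0 (DESeq2 0, limma-voom 0), with 1 at an unadjusted p under 0.05 (5.26%) and a median log2 fold change of -0.065. Nceh1, a cholesteryl ester hydrolase gene, measured 79.7 ± 9.69 CPM in wild-type libraries against 65.9 ± 4.71 CPM in mutant ones, the lysosomal sterol carrier gene Npc2 97.3 ± 5.84 and 107 ± 7.33 CPM, and the transporter gene Abca7 37.3 ± 3.84 and 33.1 ± 1.35 CPM.

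Lipoprotein receptors held most of the small p-values among the related genes. Of 20 listed 19 were tested, edgeR's quasi-likelihood test called 0, 8 had an unadjusted p under 0.05 (42.1%), 4 higher and 4 lower, DESeq2 called 1 and limma-voom 0. The scavenger receptor genes Stab1 and Msr1, which macrophages also express, measured 0.435 ± 0.155 and 0.496 ± 0.181 CPM in wild-type libraries against 1.10 ± 0.348 and 1.19 ± 0.376 CPM in mutant libraries (edgeR adjusted p = 0.244 and 0.287). The list median was -0.17, with 5 genes above 0 and 14 below.

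Lipases and their regulators handle the particles at the vessel wall and in lysosomes. Of 21 listed 15 were tested, edgeR's quasi-likelihood test called 0 (DESeq2 0, limma-voom 0), 2 had an unadjusted p under 0.05, both lower, and the median log2 fold change was -0.039. Abhd5, the coactivator of adipose triglyceride lipase, measured 27.5 ± 2.52 and 23.8 ± 0.734 CPM, Sel1l, needed for lipoprotein lipase to leave the endoplasmic reticulum, 113 ± 3.85 and 99.7 ± 10.7 CPM, and the lysosomal lipase gene Lipa 36.1 ± 1.34 and 40.7 ± 8.10 CPM.

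Genes that take up, burn or store fatty acids did not pass either. In the uptake and activation list 17 of 24 were tested, edgeR's quasi-likelihood test called 0 (DESeq2 0, limma-voom 0), 1 had an unadjusted p under 0.05 and the median was -0.065. The acyl-CoA synthetase gene Acsl3 measured 60.8 ± 5.68 and 51.7 ± 2.02 CPM, and Acsl1 58.1 ± 7.0 and 52.0 ± 2.84 CPM. Of 32 genes of fatty acid oxidation and PPAR receptors 29 were tested, edgeR called 0 (DESeq2 0, limma-voom 0), 1 had an unadjusted p under 0.05 and the median was 0.028. The mitochondrial thiolase gene Acaa2 measured 30.9 ± 1.21 and 26.5 ± 0.202 CPM, the peroxisomal enzyme gene Ehhadh 3.56 ± 0.554 and 2.78 ± 0.414 CPM, and the muscle-type carnitine transferase gene Cpt1b 1.14 ± 0.224 and 1.56 ± 0.296 CPM. Of 24 lipid droplet and triglyceride synthesis genes 16 were tested, edgeR called 0 (DESeq2 0, limma-voom 0), 0 had an unadjusted p under 0.05 and the median was -0.0051. The acyltransferase genes Dgat2 and Mogat2 measured 3.87 ± 1.42 and 2.79 ± 0.794 CPM in wild-type libraries against 2.67 ± 0.511 and 1.78 ± 0.825 CPM in mutant libraries, and the phosphatase gene Lpin1 19.1 ± 1.51 and 17.1 ± 1.54 CPM. Over all 9 lists 134 of 202 genes were tested, 15 had an unadjusted p under 0.05 (11.2%, against 10.6% of all genes), 4 higher and 11 lower (5.83% and 4.8% of all genes), and 56 were above 0 and 78 below. The lowest list median, that of the HNF4A relatives, ran from -0.35 to 0.082 with single libraries left out.

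**Figure D4:**
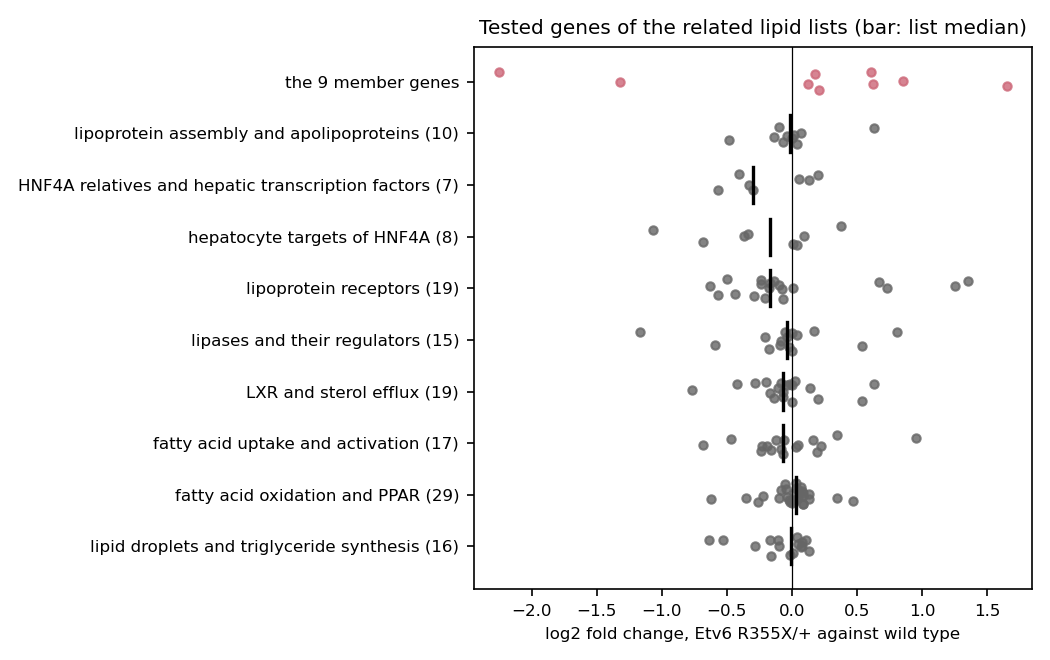
log2 fold change (x axis) of the 9 genes (red) and of each tested gene in the 9 related lists (grey, number tested in brackets), with the list median as a black bar. List medians lie between -0.30 and 0.028, while Apob, Hnf4a and Slc27a2, chosen for their difference, stand at -2.25, -1.32 and 1.65.

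Under the other tools, scalings and filters and with libraries left out, each of the 9 genes kept the sign of its log2 fold change. Mttp came nearest to 0, at 0.014, and Slc27a2 was called in all 18 alternatives.

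**Figure D5:**
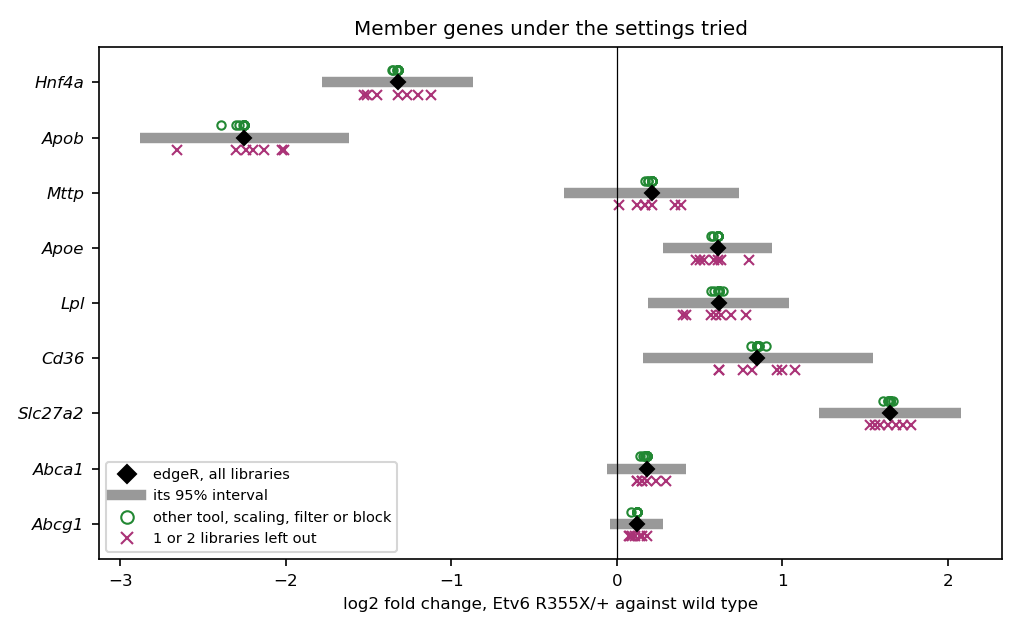
log2 fold change (x axis) of each gene in edgeR with all 6 libraries (diamond, 95% interval in grey), under the other tools, scalings, filters and the block (green circles) and with libraries left out (purple crosses). No value changes sign, and the crosses of Mttp reach down to 0.014.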

How the data were processed

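Expected counts per gene were made and deposited by the authors for 6 LSK libraries, not scaled for library size. RSEM 1.31 and STAR 2.7 after trimming by Trim Galore 0.60, on mm10, are the tools named, per the submitters' processing notes, and the annotation release is not given in the sources used here. Per the labels' protocols, total RNA was amplified from a single primer, with no step named that keeps strand. Expected counts split reads that fit several genes. The 92 spike-in rows, all at 0, were left out. Expected counts were rounded, filtered with filterByExpr (20646 genes kept), scaled by TMM and compared with edgeR 4.0.16 in R 4.3.3 (quasi-likelihood, two-sided, no covariate, Benjamini-Hochberg over all genes tested, threshold 0.05). DESeq2 1.42.0 and limma-voom (limma 3.58.1), other scalings and filters, a replicate block and leaving out libraries were alternatives. Intervals use the fit's SE and its t quantile at 95%. CPM are given as mean ± SD with n = 3. Positions and exon lengths come from GENCODE M21, which matched 55480 of 55573 genes by identifier.

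The 9 genes and all lists were chosen with earlier results of these data known. Named were the 9 genes, Etv6, the 3 genes of smallest p in each related list among those averaging at least 1 CPM in a genotype, genes overlapping the 9, and the 5 nearest profiles (prior of 0.5 CPM, mean of at least 1 CPM). A gene that this rule names is not reported here. Other genes named, such as markers and genes at 0, were chosen after their values were seen. Replicates of a genotype differed beyond sampling noise (chi-square per gene 11.3 to 48.6). Only the edgeR quasi-likelihood fit was tried on simulated counts.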

Additional observations from a re-analysis of the deposited data

How the results depend on the processing

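Over 18 alternatives, 2 of them (without ribosomal RNA genes, and without wild-type replicate 3 and mutant replicate 1 together) chosen after seeing the data, the 162 recomputed log2 fold changes of the 9 genes never changed sign. In 8 a call was lost and in 3 one was gained. The call of Hnf4a was lost with robust estimation (-1.32) and with the replicate block (-1.32). That of Apoe was gained with DESeq2 and with no count filter (0.61 in both). With single libraries left out, values ran from -1.53 to -1.12 for Hnf4a (call lost in 4 of 6), -2.66 to -2.02 for Apob (lost in 2), 0.48 to 0.80 for Apoe and 1.53 to 1.78 for Slc27a2. The count of 55 genes became 335 with DESeq2, 527 with no count filter, 32 (27 higher, 5 lower) with the replicate block and 16 to 67 with single libraries left out: 23, 16, 26 and 18 without wild-type replicates 1 and 2 and mutant replicates 1 and 2. Same-numbered libraries correlated at -0.0349, -0.0657 and -0.154 in their deviations from the genotype means, and 0 of 6 correlated best with their own number. The values thus show no pairing by number, though 3 libraries per genotype cannot settle whether there was any. Calls among the related lists rose from 0 to 1 with DESeq2 and to 2 with no count filter. Wild-type levels per kilobase of longest transcript were 0.621 for Mttp, 25.8 for Apoe, 0.795 for Slc27a2, 1.20 for Lpl and 12.6 for Abcg1. The cause of these shifts was not tested. Apob and Cd36, with under 100 expected counts in some libraries, are the genes that depth limits most, and leaving out a library leaves 2 against 3.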
